A study of Homo sapiens with 9 samples.

Results

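The 9 human genes CHD1 to CHD9 encode the chromodomain helicase DNA-binding family, ATP-driven enzymes that slide, space or evict nucleosomes. They were taken by symbol, as the rows of the deposited table whose Ensembl identifiers map to these names, 9 of 26240 genes, and the family was picked with earlier results of these data known. All 9 passed the filter on low counts, which left 16837 genes for testing. The family is usually split by the domains beside the ATPase core. CHD1 and CHD2 carry a DNA-binding domain and travel with transcribing polymerase, CHD3, CHD4 and CHD5 carry PHD fingers and can serve as the motor of the NuRD deacetylase complex, and CHD6, CHD7, CHD8 and CHD9 carry BRK domains. CHD7 binds enhancers of developmental genes, and loss of 1 working copy underlies most cases of CHARGE syndrome. Its nearest relatives are CHD6, CHD8 and CHD9, and the questions taken up here are how much CHD7 transcript remained in the mutants and whether the transcripts of the other members differed.

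RNA was sequenced from definitive endoderm, the embryonic layer that forms gut and its organs, made from H9 human embryonic stem cells. H9 is an established line, and the stem cells were grown on Matrigel in mTeSR Plus. The groups were wild-type cells (CHD7+/+), heterozygous mutants (CHD7+/-) and homozygous mutants (CHD7-/-), the mutants having been made with CRISPR/Cas9, and each genotype had 3 libraries. Neither the deleted interval nor the number of clones per genotype is in the labels, and nothing there says that the libraries are separate cultures. The p-values therefore measure spread between libraries that could be technical replicates.

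Libraries held 11854173 to 37519729 counts, the shallowest being homozygous replicate 1. All 12 definitive endoderm markers were detected in every library, with a summed level of 10946 to 11741 CPM (counts scaled to library size) in wild-type, 9238 to 10347 in heterozygous and 7506 to 8718 in homozygous cells, most of it from CER1. The 8 pluripotency markers, led by LIN28A, summed to 3891 to 3995, 3587 to 3911 and 3432 to 3618 CPM. Members of that list differed in direction: mean LIN28A was 2312, 1968 and 2001 CPM, while POU5F1, a gene with near-identical pseudogene copies, was 69.6, 159 and 90.0 CPM, its heterozygous libraries all above wild type but not called (edgeR adjusted p = 0.158). The 8 neuroectoderm markers summed to 357 to 399, 319 to 378 and 307 to 357 CPM, nearly all of it NES (means of 379.6, 353 and 337 CPM), with SOX1 or ZIC1 at 0 in some libraries. OTX1 of that list went against the sum, at means of 0.413, 1.11 and 1.30 CPM, and was called higher in heterozygous and homozygous cells against wild type (adjusted p = 0.0326 and 0.00420). The 7 mesoderm markers with a row (no row for FOXF1) summed to 49.1 to 67.4, 36.6 to 46.6 and 23.0 to 40.7 CPM, with HAND1 or MEOX1 at 0 in some. The 5 trophoblast and amnion markers with a row (no row for CDX2) summed to 9.95 to 12.7, 13.4 to 13.9 and 23.5 to 31.2 CPM, with TFAP2A or KRT7 at 0 in some. Other markers also passed by edgeR (log2 fold change and adjusted p in brackets). Homozygous cells lay below wild type for CER1 (-0.65, 0.00257), FOXA2 (-0.55, 0.00303), HHEX (-0.44, 0.0124), TDGF1 (-0.25, 0.0494) and KDR (-1.05, 0.00419). They lay above it for GATA3 (1.36, 0.00233) and TFAP2C (1.23, 0.000216). Homozygous cells lay below heterozygous cells for HHEX (-0.43, 0.0332) and NANOG (-1.65, 0.0401), and above for GATA3 (1.42, 0.00553) and TFAP2C (0.90, 0.00597). In such bulk RNA, fewer cells of a type and less RNA per cell cannot be told apart, and the part of cell makeup in the results below was not tested.

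CHD7 transcript was lower in every mutant library, yet 26.7 ± 3.84% of the wild-type level (SD, n = 3) remained in homozygous cells. CHD7 (ENSG00000171316, GRCh38 chromosome 8, 60678778 to 60868028, plus strand) had 7266, 5941 and 4556 counts in replicates 1, 2 and 3 of wild-type cells. Heterozygous cells had 3392, 3572 and 3048 counts, and homozygous cells 671, 1298 and 1113. Scaled to library size these are 195, 195 and 189.2 CPM, 110.4, 131 and 129 CPM, and 56.1, 43.0 and 55.5 CPM. The 3 genotypes did not overlap. Expressed in percent of the wild-type mean, the homozygous libraries kept 29.1, 22.3 and 28.8%, and the heterozygous libraries 57.2, 67.6 and 66.9%.

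The level in heterozygous cells lay close to the arithmetic mean of the other genotypes. It was 63.9 ± 5.82% of the wild-type mean (SD, n = 3), beside an arithmetic midpoint of wild-type and homozygous cells of 63.3% and a geometric midpoint of 51.7%. On the log2 scale the heterozygous level stood 0.31 above the midpoint (SE 0.09, 95% interval 0.11 to 0.51). That contrast missed the threshold after adjustment over all genes (edgeR adjusted p = 0.206). By edgeR, DESeq2 and limma-voom 0 of 9 members passed this contrast, and CHD7 alone of the 9 had an unadjusted p below 0.05 by edgeR, as did 12.1% of all genes. Of all genes 0.624% passed, 0.386% above and 0.238% below the midpoint. The comparisons between genotypes did pass, with a fold of 0.266 (95% interval 0.226 to 0.314, adjusted p = 5.25e-07) for homozygous against wild-type cells, 0.639 (0.546 to 0.748, adjusted p = 0.00579) for heterozygous against wild-type cells and 0.416 (0.354 to 0.490, adjusted p = 3.53e-05) for homozygous against heterozygous cells. Tested against a 1.5-fold change, the heterozygous fall was not called (adjusted p = 1). A gene-level count cannot tell which exons the remaining reads cover, and no exon of CHD7 is shared with another gene model of GENCODE release 29.

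**Figure D1:**
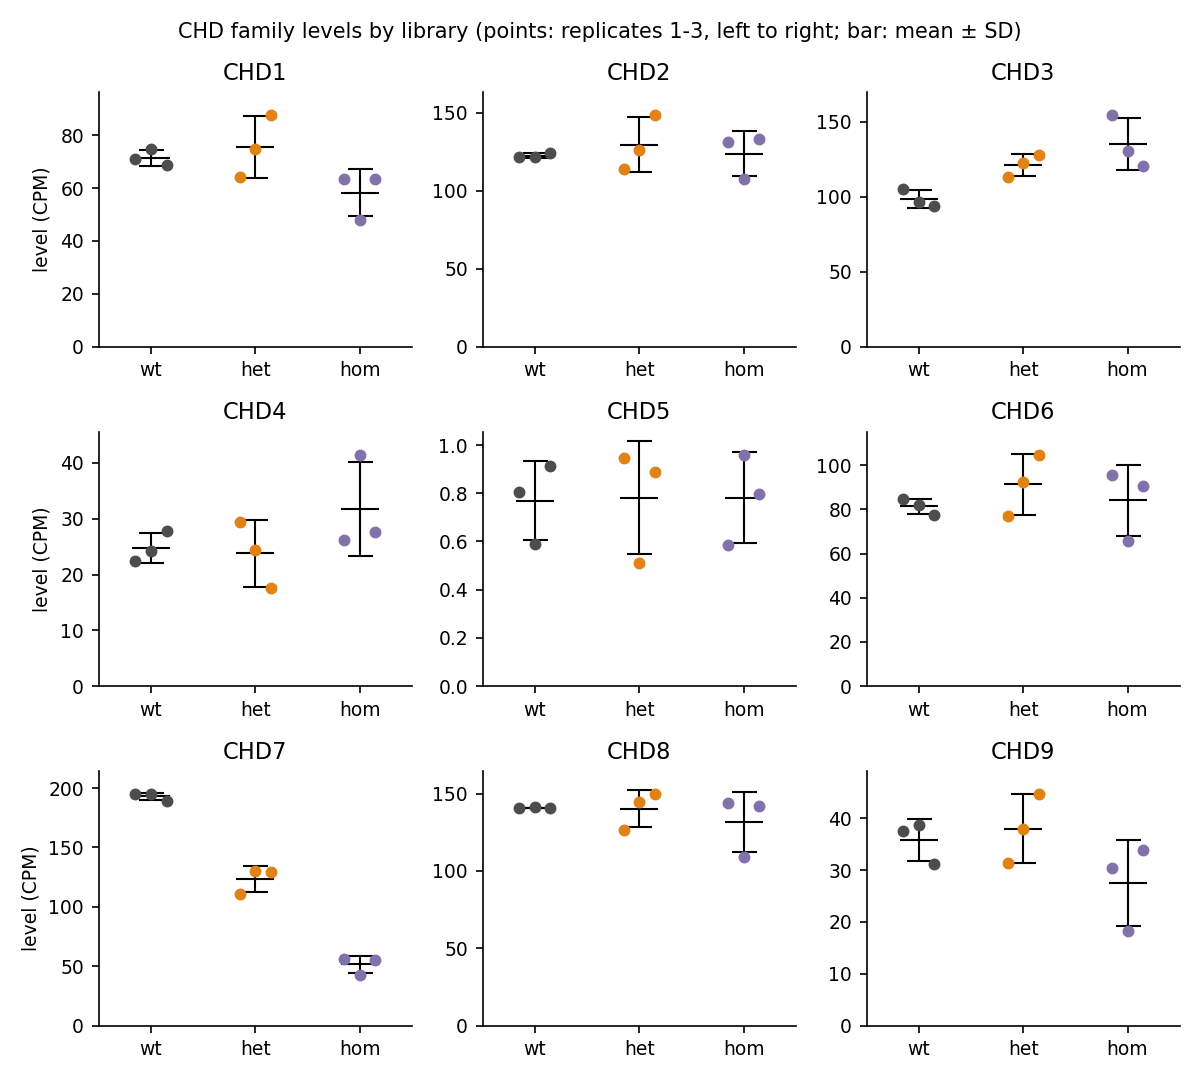
Level of each CHD gene in CPM (vertical axes, each starting at 0) in wild-type (wt), heterozygous (het) and homozygous (hom) libraries; points are replicates 1 to 3 from left to right, and bars give the mean ± SD. CHD7 steps down from 193 to 123 and 51.5 CPM without overlap. The CHD3 means are 98.4, 121 and 135 CPM, where only homozygous against wild-type cells was called and the mutant groups overlap.

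The other members showed no such steps down, and 1 of them, CHD3, rose in homozygous cells. Of the 9 members, 1 rose (CHD3), 1 fell (CHD7) and 7 passed no threshold when homozygous cells were set against wild type, where 7.68% of all genes were called, 3.50% higher and 4.18% lower. The median log2 fold change was 0.01 over the members and 0.01 over all genes. In heterozygous against wild-type cells CHD7 fell and 8 were not called (1.86% of all genes called, 0.820% higher and 1.04% lower), and in homozygous against heterozygous cells CHD7 fell and 8 were not called (2.21% of all genes called, 0.986% higher and 1.22% lower). Both mutant comparisons share the wild-type libraries. Libraries of homozygous and wild-type cells did not overlap for 3 members, CHD3, CHD7 and CHD1, where 28.9% of all genes showed no overlap, 13.2% higher and 15.7% lower. For heterozygous against wild-type cells these were CHD3 and CHD7 (22.2% of all genes, 11.1% in each direction), and for the mutants against each other CHD7 and CHD1 (19.5% of all genes, 9.02% higher and 10.5% lower).

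**Figure D2:**
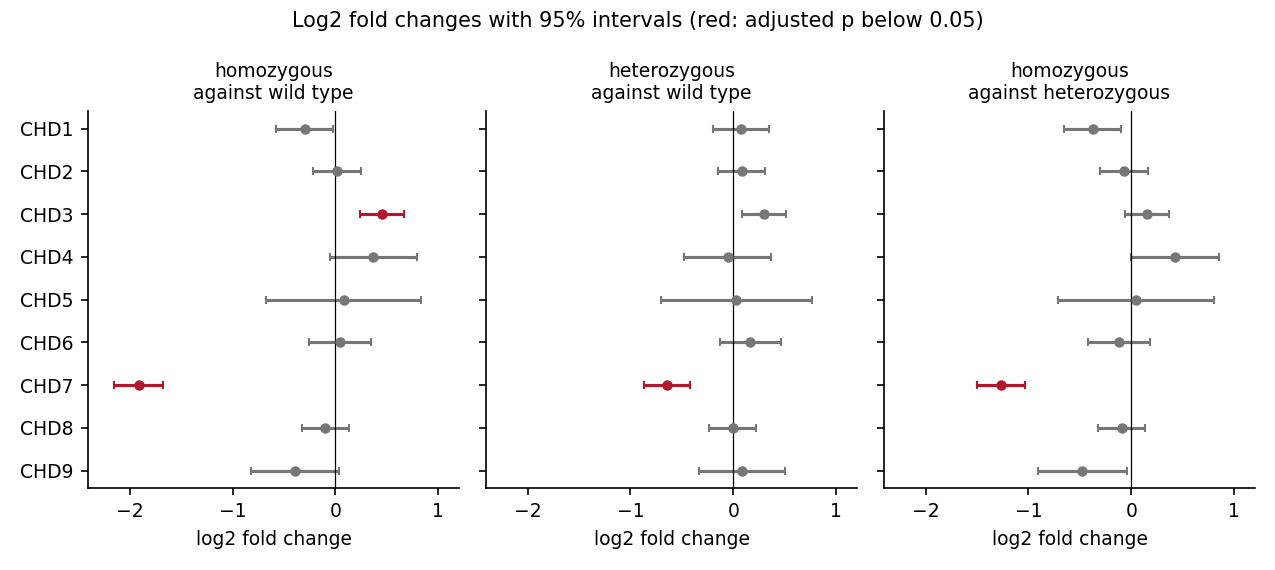
Log2 fold change of each CHD gene (horizontal axis) with its 95% interval in the 3 comparisons; red marks an adjusted p below 0.05. CHD7 is called in all 3 panels and CHD3 (0.45) in homozygous against wild-type cells, while the intervals of CHD2, CHD5, CHD6 and CHD8 include 0 in each panel.

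CHD8, a relative of CHD7 that binds the promoters of active genes and restrains beta-catenin targets, had nearly the same level in all wild-type and most mutant libraries. It stood at 141, 141 and 140.5 CPM in wild-type, 127, 144 and 150 CPM in heterozygous and 144, 109 and 142 CPM in homozygous replicates 1, 2 and 3. All groups overlapped, and the lowest library was homozygous replicate 2. The fold was 0.934 in homozygous against wild-type cells (95% interval 0.797 to 1.095, edgeR adjusted p = 0.613). In heterozygous cells it was 0.997 (0.850 to 1.17, adjusted p = 0.992).

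CHD6, a remodeller linked to the response to oxidative DNA damage, had a wider spread. Its levels were 84.5, 82.1 and 77.6 CPM in wild-type, 76.9, 92.2 and 105 CPM in heterozygous and 95.8, 65.8 and 90.6 CPM in homozygous replicates. The homozygous libraries lay on both sides of the wild-type libraries, with a fold of 1.03 (95% interval 0.836 to 1.27, edgeR adjusted p = 0.889). Heterozygous cells gave a log2 fold change of 0.16 (fold interval 0.911 to 1.38, adjusted p = 0.677).

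CHD9, the least studied of the subfamily, was present at 37.6, 38.7 and 31.1 CPM in wild-type, 31.4, 37.96 and 44.6 CPM in heterozygous and 30.4, 18.2 and 34.0 CPM in homozygous replicates. Homozygous replicate 2 was the lowest of the 9 libraries, and the groups overlapped. The fold in homozygous against wild-type cells was 0.762 (95% interval 0.566 to 1.03, edgeR adjusted p = 0.257). Without homozygous replicate 2 the log2 fold change in that comparison went from -0.39 to -0.15 (adjusted p = 0.682). Against heterozygous cells the homozygous fold was 0.720 (95% interval 0.534 to 0.969) and was not called (edgeR adjusted p = 0.232).

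The subfamily's summed transcript was lower in the mutants, as CHD7 was, while the sums of the other 3 members overlapped between genotypes. Levels per kilobase of exon, which allow genes to be compared, were 11.4 ± 0.194 CPM per kb for CHD7 in wild-type, 7.27 ± 0.662 in heterozygous and 3.03 ± 0.436 in homozygous cells (SD, n = 3). CHD6, CHD8 and CHD9 together stood at 14.97, 14.9 and 14.1 CPM per kb in wild-type, 13.4, 15.7 and 17.3 in heterozygous and 15.5, 11.0 and 15.3 in homozygous libraries. These ranges overlap. The share of CHD7 in the sum of the 4 genes was 43.7 ± 0.408% in wild-type, 32.04 ± 1.26% in heterozygous and 17.98 ± 0.651% in homozygous cells. With the coding length in place of the exon length these shares were 39.9, 28.99 and 15.9%. No test was made on these sums, which were formed over genes chosen for the question.

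**Figure D3:**
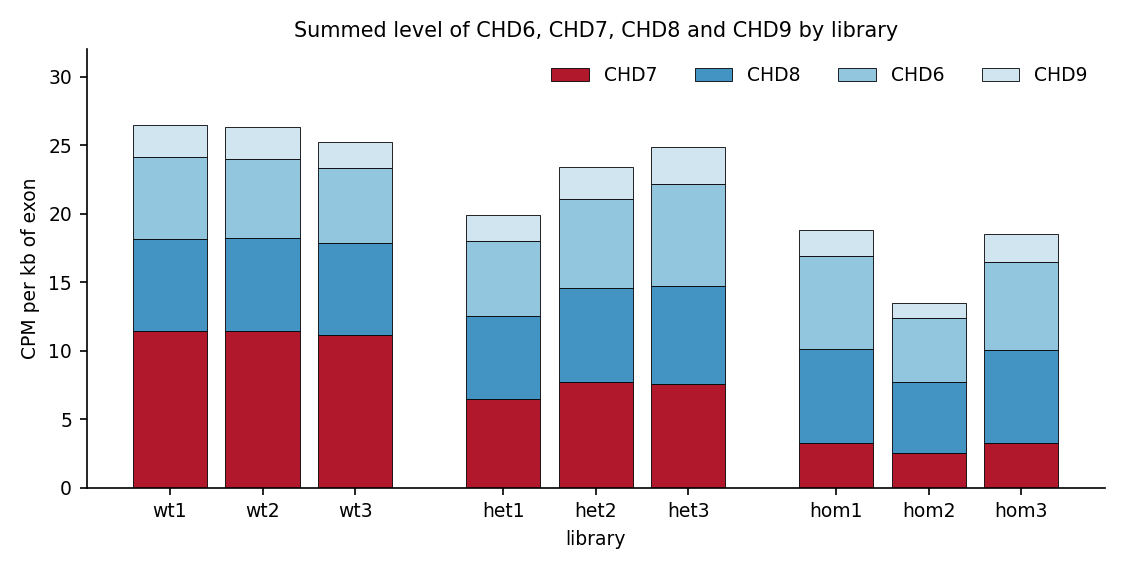
Stacked level of CHD7, CHD8, CHD6 and CHD9 in CPM per kilobase of exon (vertical axis) for each of the 9 libraries (wt, het and hom with the replicate number). The CHD7 segment shrinks from about 11.4 to 3.03 CPM per kb on average, the other 3 segments together stay between 11.0 and 17.3, and homozygous replicate 2 has the shortest bar.

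In the order of levels per kilobase of exon, CHD7 held rank 1 in wild-type, 3 in heterozygous and 6 in homozygous cells. The wild-type order was CHD7 (11.4 CPM per kb), CHD3 (10.1), CHD2 (7.23), CHD1 (6.86), CHD8 (6.72), CHD6 (5.76), CHD9 (2.17), CHD4 (1.95) and CHD5 (0.0778). Libraries of neighbours overlapped for CHD1 with CHD8 and for CHD9 with CHD4, and not for the other 6 pairs of neighbours. In heterozygous cells CHD3 led (12.4 CPM per kb), and CHD2, CHD7, CHD1, CHD8 and CHD6 overlapped each with the next. In homozygous cells CHD3 led again (13.8 CPM per kb), CHD7 lay below CHD1 without overlap and overlapped with CHD4. The order rests on the length used, since with the coding length CHD2 held rank 1 and CHD7 rank 2 in wild-type cells. With that length CHD2, not CHD3, also led in heterozygous cells (23.6 and 19.6 CPM per kb, no overlap). In homozygous cells it led with overlap (22.6 and 21.9). CHD7 then held rank 5 in heterozygous and 6 in homozygous cells. The order also rests on how reads on exons shared with other gene models were counted, which no source used here gives. Such exons hold 93.1% of the coding bases of CHD4 and 25.2% of those of CHD2. With either length, the ranks of CHD7 and CHD3 relative to CHD4 and CHD2 are therefore uncertain.

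CHD3, an ATPase that can take the place of CHD4 in NuRD, was the called riser. Its levels were 105, 96.3 and 93.7 CPM in wild-type, 113, 122 and 128 CPM in heterozygous and 154, 131 and 120.5 CPM in homozygous replicates. Every mutant library lay above every wild-type library. The fold was 1.37 in homozygous against wild-type cells (95% interval 1.18 to 1.59, edgeR adjusted p = 0.0131) and 1.23 in heterozygous against wild-type cells (1.06 to 1.42, adjusted p = 0.183). Homozygous and heterozygous cells were not called different (1.11, 0.962 to 1.29, adjusted p = 0.412). The homozygous call did not survive leaving out wild-type replicate 2 (adjusted p = 0.0694), wild-type replicate 3 (0.0785) or homozygous replicate 1 (0.0555), and against a 1.5-fold change (1).

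NAA38, a subunit of an N-terminal acetyltransferase, starts 432 bases from CHD3 on the opposite strand and shares none of its exons. It stood at 16.1, 16.0 and 19.1 CPM in wild-type, 20.3, 18.2 and 17.3 in heterozygous and 22.7, 32.8 and 18.7 in homozygous replicates, and its homozygous rise of 0.55 on the log2 scale (SE 0.17) was not called (edgeR adjusted p = 0.0780).

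The promoter table used here (RefSeq, GRCh38.p14) has entries for 6 of the 9 members, and 2 stretches are shown because the results turn on their genes: CHD3, the called paralog, and CHD9, whose divergent neighbour is described next. Each is the 250 bases before the RefSeq start, 5′ to 3′ on the gene's strand, and capitals mark the GC box GGGCGG on either strand.
CHD3 (chr17:7888539-7888788, plus strand): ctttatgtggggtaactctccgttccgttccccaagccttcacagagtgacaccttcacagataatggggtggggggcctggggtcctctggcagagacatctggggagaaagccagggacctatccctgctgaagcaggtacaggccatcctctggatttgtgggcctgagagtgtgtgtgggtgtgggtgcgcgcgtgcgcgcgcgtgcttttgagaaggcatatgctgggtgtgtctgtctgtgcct
CHD9 (chr16:53054741-53054990, plus strand): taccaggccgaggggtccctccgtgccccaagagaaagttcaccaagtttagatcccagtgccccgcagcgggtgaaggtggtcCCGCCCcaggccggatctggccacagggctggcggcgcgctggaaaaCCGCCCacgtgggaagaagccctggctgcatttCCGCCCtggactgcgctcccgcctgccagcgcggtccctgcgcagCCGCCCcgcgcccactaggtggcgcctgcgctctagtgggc
The CHD9 stretch holds 4 GC boxes and 22 CG dinucleotides, and the CHD3 stretch 0 and 9. Of 34943 promoters of this length, 42.5% hold a GC box, and the median is 11 CG dinucleotides. Neither stretch holds CCAAT (in 32.04% of promoters, both strands) or TATAAA (10.8%). The table holds 4 entries for CHD9, and the other 3 have 1, 0 and 0 GC boxes, 33, 1 and 2 CG dinucleotides and 2, 1 and 0 CCAAT matches. The RefSeq start of CHD3 lies 3983 bases downstream of the GENCODE start, so neither stretch is the only candidate promoter, and gene counts do not tell the starts apart. These matches describe letters and were not tied to the levels.

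CHD9NB, annotated next to CHD9 on the opposite strand (chromosome 16, 53035690 to 53052873), moved where CHD9 was not called. The starts of the pair lie 2160 bases apart and no bases are shared. CHD9NB had 3.06, 2.33 and 1.62 CPM in wild-type, 4.53, 4.42 and 3.77 CPM in heterozygous and 9.19, 9.50 and 7.58 CPM in homozygous replicates. The 3 genotypes did not overlap, and the gene stood in reverse order to CHD7. Homozygous cells exceeded wild type by a log2 of 1.88 (SE 0.21, edgeR adjusted p = 0.000136) and heterozygous cells by 1.04 (SE 0.20, adjusted p = 0.0194). The rise of heterozygous over wild-type cells, 0.84 (SE 0.21), was not called (adjusted p = 0.0761), while DESeq2 called it (0.0109), as did the fit with the replicate number as a block (0.0242). The call between the mutants was lost without heterozygous replicate 2 (0.0807) or 3 (0.0604) and without homozygous replicate 1 (0.0521) or 2 (0.0698).

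CHD1 and CHD2, the members tied to transcription elongation and to histone H3.3 deposition, were not called. CHD1 stood at 71.2, 74.8 and 68.8 CPM in wild-type, 64.1, 74.9 and 87.6 CPM in heterozygous and 63.5, 48.1 and 63.4 CPM in homozygous replicates. Its homozygous libraries all lay below the wild-type and the heterozygous libraries, with folds of 0.812 (95% interval 0.670 to 0.984, edgeR adjusted p = 0.180) and 0.770 (0.635 to 0.933, adjusted p = 0.151). Without homozygous replicate 2 the log2 fold change against wild type went from -0.30 to -0.18 (adjusted p = 0.510). CHD2 ranged from 122 to 124 CPM in wild-type, 114 to 149 in heterozygous and 107 to 133 in homozygous libraries (fold 1.01, 0.859 to 1.19, adjusted p = 0.958). CHASERR, the noncoding RNA beside CHD2 that is known to hold CHD2 expression down, ranged from 28.2 to 30.0, 27.2 to 31.4 and 26.4 to 35.9 CPM and was not called (adjusted p = 0.633, homozygous against wild type). CHD1-DT, the transcript that starts 214 bases from CHD1, was at 0.466 to 1.13 CPM and was not called either (adjusted p = 0.963).

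CHD4 and CHD5, the other NuRD motors, need care with their levels. CHD4 read 22.4, 24.3 and 27.7 CPM in wild-type, 29.4, 24.4 and 17.5 CPM in heterozygous and 26.2, 41.5 and 27.6 CPM in homozygous replicates, all groups overlapping (fold 1.29 in homozygous against wild-type cells, 95% interval 0.963 to 1.73, edgeR adjusted p = 0.280). In GENCODE release 29, 93.1% of its coding bases (5818 of 6249) also belong to a gene model on the same strand, ENSG00000285238, which has no row in the table. No source used here gives how reads on shared exons were counted, so the level of CHD4 and its place in the order are uncertain. For CHD2 this share was 25.2%, with AC013394.1 at a mean of 0.265 CPM, and for the other members it was 0 to 3.44%. CHD5, a neuronal and testis member, was near the limit of detection, at 0.590 to 0.913 CPM in wild-type, 0.511 to 0.944 in heterozygous and 0.585 to 0.960 in homozygous libraries (7 to 30 counts), and its interval was wide (fold 1.06, 0.627 to 1.78, adjusted p = 0.918).

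The genes CHD1, CHD2, CHD6, CHD7, CHD8 and CHD9 (6 of 9), grouped here by this pattern, deviated together from library to library within the mutant genotypes. In heterozygous replicate 1 they lay below their genotype mean by a log2 of -0.23, -0.18, -0.24, -0.16, -0.14 and -0.26, and in homozygous replicate 2 by -0.27, -0.20, -0.33, -0.25, -0.26 and -0.54. CHD4 went the other way in those libraries, at 0.34 and 0.42, as did CHD5, at 0.31 in both. CHD3 lay slightly below in them, at -0.10 and -0.04, but was lowest in homozygous replicate 3 (-0.16), where the 6 lay above. The median deviation of the 9 members was -0.16 in heterozygous replicate 1 and -0.25 in homozygous replicate 2, beside -0.09 and -0.14 for all 2405 tested genes with at least 9000 exonic bases, a length chosen after the values were seen. In the wild-type libraries both medians stayed within -0.03 and 0.02. The part of transcript length in the members' values was not tested.

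**Figure D4:**
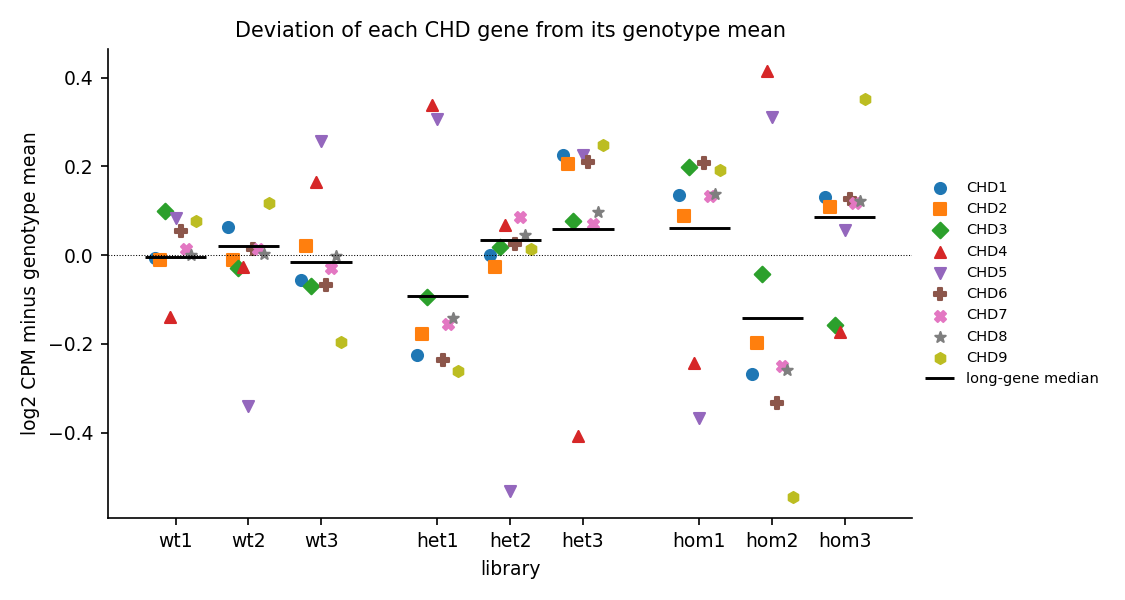
Log2 CPM of each CHD gene minus its genotype mean (vertical axis) for the 9 libraries; symbols are genes and black lines the median of genes with at least 9000 exonic bases. Most members lie below 0 in heterozygous replicate 1 and homozygous replicate 2, where CHD4 is highest (0.34 and 0.42), and the wild-type libraries scatter least for CHD8.

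Partner genes of the family were mostly not called. None of the 12 NuRD subunits tested was called in the 3 comparisons between genotypes by edgeR (0 of 12, lowest adjusted p = 0.282, 0.470 and 0.209). Of all genes 7.68, 1.86 and 2.21% were called there, so few calls among 12 genes would be looked for. DESeq2, which called 10.5, 3.41 and 4.95% of all genes, and limma-voom called none of the 12 either. By edgeR 0, 0 and 2 of them had an unadjusted p below 0.05, against 23.2, 13.5 and 18.3% of all genes. Their log2 fold changes in homozygous against wild-type cells ran from -0.22 (GATAD2B) to 0.19 (HDAC1), with a median of 0.03. Of 11 elongation factors that work beside CHD1, 1 fell in homozygous against wild-type cells, where 4.18% of all genes were lower. It was CDC73, a PAF1 complex subunit, at 51.3, 50.4 and 44.7 CPM in wild-type, 44.4, 49.6 and 56.0 CPM in heterozygous and 37.0, 32.3 and 40.1 CPM in homozygous replicates. The edgeR adjusted p was 0.0372 and the log2 fold change -0.42 (SE 0.11). Its call was lost without any of the wild-type libraries (0.113, 0.158 and 0.0575), without heterozygous replicate 2 (0.0685) and without homozygous replicates 1 (0.0930) or 2 (0.132). Against heterozygous cells CDC73 was at -0.46 and not called (0.0567), though DESeq2 called it (0.0125). The median of the 11 was -0.04. SUPT4H1 had the largest change, 0.95 against wild-type and 1.56 against heterozygous cells, and was not called (edgeR adjusted p = 0.202 and 0.102). Its mean levels were low, at 0.487, 0.312 and 0.936 CPM in wild-type, heterozygous and homozygous cells. In each of these 2 comparisons 3 of the 11 had an unadjusted p below 0.05, beside 23.2 and 18.3% of all genes.

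ASH2L, a core subunit of H3K4 methyltransferase complexes that CHD7 and CHD8 have been reported to bind, was the called gene among their 12 tested partners, which at 1 of 12 is near the 7.68% called among all genes. It stood at 219, 229 and 228 CPM in wild-type, 237, 258 and 251 CPM in heterozygous and 308, 299 and 322 CPM in homozygous replicates. The 3 genotypes did not overlap. The log2 fold change was 0.46 in homozygous against wild-type cells (SE 0.07, edgeR adjusted p = 0.00151) and 0.32 in homozygous against heterozygous cells (SE 0.07, adjusted p = 0.0373). Heterozygous and wild-type cells differed by 0.14 (adjusted p = 0.407). The call between the mutants was lost with the replicate number as a block (0.0623), with those 6 libraries alone (0.129), and on leaving out any library (0.0601 to 0.103) other than homozygous replicate 2 (0.0447). Its complex partners WDR5 (-0.09), RBBP5 (-0.20) and DPY30 (0.10) were not called, and the median of the 12 was -0.06. FAM124B was not tested.

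Among 22 other SNF2-type ATPases, SMARCA2, a catalytic subunit of BAF complexes, fell in homozygous cells, 1 of 22 called beside 7.68% of all genes. Its levels were 4.05, 4.85 and 3.57 CPM in wild-type, 2.80, 3.07 and 4.24 CPM in heterozygous and 2.17, 2.35 and 2.34 CPM in homozygous replicates. The log2 fold change was -0.86 (SE 0.21, edgeR adjusted p = 0.0261), and the call was lost without wild-type replicates 1 (0.0567) or 2 (0.139) and homozygous replicates 1 (0.0778) or 2 (0.0751). Its paralog SMARCA4, with mean levels of 531 and 515 CPM, was not called (-0.04, adjusted p = 0.785). The list's median was -0.13, beside 0.01 over all genes, and 16 of 22 values were negative. Of the 22, 8 had an unadjusted p below 0.05 by edgeR in homozygous against wild-type cells, beside 23.2% of all genes. Libraries of these genotypes did not overlap for 4 ATPases that were higher and 6 that were lower, beside 13.2 and 15.7% of all genes. DESeq2 called 3 of the 22, 2 of them higher, and 10.5% of all genes. In heterozygous against wild-type cells edgeR called no gene of any of these 4 lists, beside only 1.86% of all genes. There 4 of the 22 ATPases and 0 of the other lists had an unadjusted p below 0.05, beside 13.5% of all genes. The nearest was the ISWI motor SMARCA1 (log2 fold change 0.40, adjusted p = 0.0516). DESeq2, limma-voom, both other scalings, both other filters, the 6 libraries alone and the replicate block each called 1 of the 22 there, so that count of 0 sits at the edge of the threshold.

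GDNF, a ligand of the RET receptor, had the profile nearest to that of CHD7 over the 9 libraries. Nearness was the root mean square difference of log2 levels, each gene centred on its own mean, over 10826 genes with a mean of at least 5 CPM. It was 0.15 for GDNF, 0.18 for the tyrosine phosphatase PTPN13, 0.20 for the JNK scaffold MAPK8IP2, 0.22 for the adhesion molecule ALCAM and 0.23 for the cilia gene ODAD2, where the median gene was at 0.80. Since they were picked by this pattern, their levels are a description. GDNF went from 13.9 to 9.65 and 3.99 CPM in wild-type, heterozygous and homozygous cells, and PTPN13 from 352 to 217 and 116 CPM. With a minimum of 1 CPM the vascular ligand ANGPT1 took the fourth place and ODAD2 left the 5. No other CHD member was among these genes, the closest being CHD9 (0.631) and CHD1 (0.662). Both lay nearer than the median gene, and CHD9 lay about at the 5th percentile of the genes compared (0.629).

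**Figure D5:**
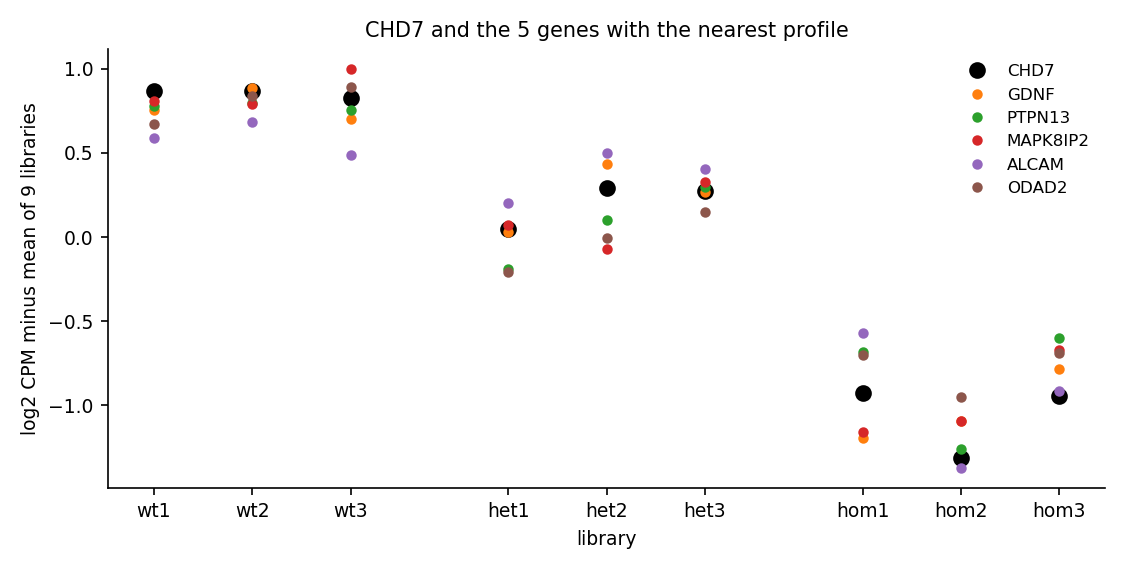
Log2 CPM minus the mean of the 9 libraries (vertical axis) for CHD7 (large black points) and the 5 genes with the nearest profile, by library. All 6 genes are lowest in the homozygous libraries, and 5 of them are highest in all wild-type libraries, while ALCAM in heterozygous replicate 2 (0.50) lies just above wild-type replicate 3 (0.49); the genes were chosen by this pattern.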

How the data were processed

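Raw read counts per Ensembl gene, 1 column per library, were used as deposited. The submitters' processing notes name HISAT2, HTSeq, SAMtools, Trimmomatic, FastQC and hg38, with no version or role. No source used here gives the annotation release, the strand setting or the rule for rows. Symbols were matched for 21313 of 26240 genes, and positions and exon lengths come from GENCODE release 29 (25209 genes).

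In R 4.3.3 with edgeR 4.0.16, filterByExpr kept 16837 genes, counts were scaled with TMM factors, and all 9 libraries were fitted in 1 quasi-likelihood model with genotype as the only factor. Tests were two-sided with Benjamini-Hochberg adjustment over all genes tested, and genes with an adjusted p below 0.05 were called. The SE is the log2 fold change divided by the square root of F, and 95% intervals use the total degrees of freedom. The 4th contrast set heterozygous cells against the log2 midpoint of the others. CPM values divide by the library size after TMM adjustment. The fit was tested on simulated data. No replicate pair agreed within sampling noise (chi-square per degree of freedom 2.55 to 30.6).

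The members, partner lists and markers were chosen with earlier results of these data known. Named genes are the 9 members, called partner genes (up to 4 per list and contrast), the 5 genes nearest to CHD7, neighbours within 5 kb or overlapping, and CHASERR. SMARCA1, SMARCA4, HDAC1, GATAD2B, SUPT4H1, WDR5, RBBP5, DPY30 and the markers given with values were named after their values were seen. Alternatives were DESeq2 1.42.0, limma-voom (limma 3.58.1), other scalings and filters, 6 libraries alone, the replicate block, a 1.5-fold threshold and leaving out each library.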

Additional observations from a re-analysis of the deposited data

How the results depend on the processing

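The calls of CHD7 between genotypes held under each alternative except the test against a 1.5-fold change, which ended the heterozygous fall (log2 fold change -0.65, adjusted p = 1) and left 0 members called in that comparison and 1 in homozygous against wild-type cells. Without 1 library the count of members called in homozygous against wild-type cells was 1 to 2, since the CHD3 call went when wild-type replicate 2, wild-type replicate 3 or homozygous replicate 1 was left out. The CHD7 log2 fold change ran from -1.97 to -1.79, -0.68 to -0.57 and -1.34 to -1.15 in the 3 comparisons, and from 0.25 to 0.39 against the midpoint, which no alternative called (adjusted p 0.102 with DESeq2). With the coding length the share of CHD7 among CHD6 to CHD9 was 39.9, 28.99 and 15.9%. Of 635 values of members under alternatives, 32 changed sign, 30 of them without 1 library, at most 0.23 in size and none called (lowest adjusted p = 0.818), and none was of CHD7 or CHD3. With the replicate number as a block CHD7 gave -0.65 in heterozygous against wild-type cells (adjusted p = 0.00656) and CHD3 0.45 in homozygous cells (0.0149), and no call of a member changed. The numbers share no stated source, and same-numbered libraries' deviations had correlations of -0.18 to 0.23, of either sign. Counts of called partner genes were small and moved: in homozygous against wild-type cells the ATPases went from 1 to 3 with DESeq2 and from 0 to 5 on leaving out 1 library, and the elongation factors from 1 to 0 without 6 of the 9 libraries. The cause was not tested. Low counts leave wide intervals for CHD5, CHD1-DT and AC013394.1.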
